A study of Homo sapiens with 4 samples.

Results

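The poly(A)-binding proteins described here are 3 proteins that bind the poly(A) tail, PABPC1, PABPC4 and PABPN1, and 2 proteins that bind the cytoplasmic PABP itself, PAIP1 and PAIP2. Their mRNAs were followed in a list of 14858 peaks in which RNA immunoprecipitated with YTHDF2 exceeded its background, and 13 of those peaks belonged to the 5 genes. An exon peak was given to the gene named in its annotation, and a peak of another class to each gene whose span on hg38 held the summit. YTHDF2 is a cytosolic reader of N6-methyladenosine (m6A) that brings the CCR4-NOT deadenylase to its bound RNA. The study used HCCLM3, a metastatic human hepatocellular carcinoma line, of wild-type genotype in every library: 2 libraries of YTHDF2 RNA immunoprecipitation (RIP) and 2 of input RNA. No library with a control antibody is among the 4, and a peak therefore stands for more RNA in the YTHDF2 RIP than in the input, which alone does not establish binding.

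The cytoplasmic PABPs coat the poly(A) tail through their RNA recognition motifs and hold the initiation factor eIF4G at the cap, which joins both ends of the mRNA in the closed-loop model of translation. PABPN1 works in the nucleus, where it stimulates poly(A) polymerase and helps set tail length. PAIP1 resembles the middle of eIF4G and stimulates translation together with PABP, whereas PAIP2 competes with the tail and with eIF4G for PABP and represses translation. The tail and its proteins are what a deadenylase such as CCR4-NOT acts on.

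Each value below comes from 1 peak list for the series, which names no sample and gives no value per library. It is taken here as the 4 libraries combined, although how they were combined is not stated. No replicate spread or library depth can be stated, and the p and q of a peak are the caller's. Fold enrichment, as deposited by the authors, divides the RIP by the background at the peak's summit. RIP fragment numbers and backgrounds at the summits were recovered from the fold and the p, with the background in fragments on the scale of the RIP. Intervals are exact 95% Poisson intervals of the RIP fragments at a fixed background and cover counting error only. Without molecular identifiers, any PCR copies of 1 molecule that were kept count separately. The list does not show whether copies were removed. The error of the background is also left out. Peaks are said to pass where their q was at most 0.01.

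All 5 genes had a peak that passed, and 12 of the 13 peaks passed. Of all peaks in the list 37.3% passed, and of the 7191 protein-coding genes with a peak 54.2% had one that passed. The members' peaks rested on a median of 113 RIP fragments, against 12 over the whole list and 66 over its passing peaks, and their median background was 73.4, against 25.8 over passing peaks. A high fragment number lets a low fold pass, and the median fold of the 13 peaks was 2.05, below the median of 2.53 over all passing peaks. By each gene's best peak, the median fold was 2.78 over the 5 members, against 2.69 over protein-coding genes with a passing peak and 2.61 over all protein-coding genes with a peak. The value of 2.61 recurs in the list at peaks of 3 RIP fragments with a −log10 q of 0.166. The members' best peaks held 26 to 240 fragments, so that median does not compare genes at like fragment numbers. All 13 peaks lay on main chromosomes. The list classed 6 of them as promoter, 4 as exon, 3 as 3' UTR and none as intron, a class that held 21.4% of all peaks. A promoter-class peak has no exon or intron call in the list, so the lack of intron peaks does not cover those 6.

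PABPC1, the main cytoplasmic PABP, had the most peaks. Its gene spans chromosome 8 from 100702916 to 100722088 on the minus strand, or 19173 bp, and it carried 6 peaks, all of which passed. Only 11 protein-coding genes had 6 or more passing peaks, 0.282% of the genes with any, and the highest number in a gene was 8. The spans of these 11 genes had a median of 126182 bp, and 2 of them were shorter than PABPC1. The 6 peaks covered 3322 bp.

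The peaks of PABPC1 were numbered from the 5' end of the gene. The first peak (100721154 to 100721839) had its summit 522 bp past the gene start. It held 273 RIP fragments over a background of 198.5, for a 1.37-fold enrichment (interval 1.22 to 1.55; −log10 q 3.67). This was the lowest fold of the 13 peaks at their highest fragment number and highest background. The second peak (100717499 to 100718118), in exon 2 of 15, held 161 fragments over 85.0, a fold of 1.88 (1.61 to 2.20) with a −log10 q of 9.66. The third peak (100712073 to 100712662), in exon 6, held 113 fragments over 73.4, a fold of 1.53 (1.26 to 1.84) with a −log10 q of 2.34, the weakest of the 6 by q.

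The other 3 peaks of PABPC1, toward the 3' end, had higher folds. The fourth peak (100708852 to 100709538), in exon 8, held 240 fragments over 85.7, a fold of 2.78 (2.44 to 3.15). Its −log10 q of 37.1 was the highest of the 5 genes and exceeded that of 99.2% of all peaks in the list. The fifth peak (100706388 to 100706772), in exon 11, held 201 fragments over 88.4, a fold of 2.26 (1.96 to 2.59) with a −log10 q of 20.3. The sixth peak (100702788 to 100703141) had its summit 131 bp before the end of the gene and held 223 fragments over 92.5, a fold of 2.40 (2.09 to 2.73) with a −log10 q of 25.8.

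From the second peak to the sixth the background of PABPC1 stayed between 73.4 and 92.5, while the RIP fragments ranged from 113 to 240. At a like background the fold follows the RIP fragments by its definition, so this restates the folds of these 5 peaks. The interval of the exon 8 peak lay above those of peaks 1, 2 and 3. The intervals of the exon 11 peak and of the peak at the gene end lay above those of peaks 1 and 3 and overlapped that of the exon 2 peak. These comparisons are within 1 combined library set and were not tested across replicates.

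**Figure D1:**
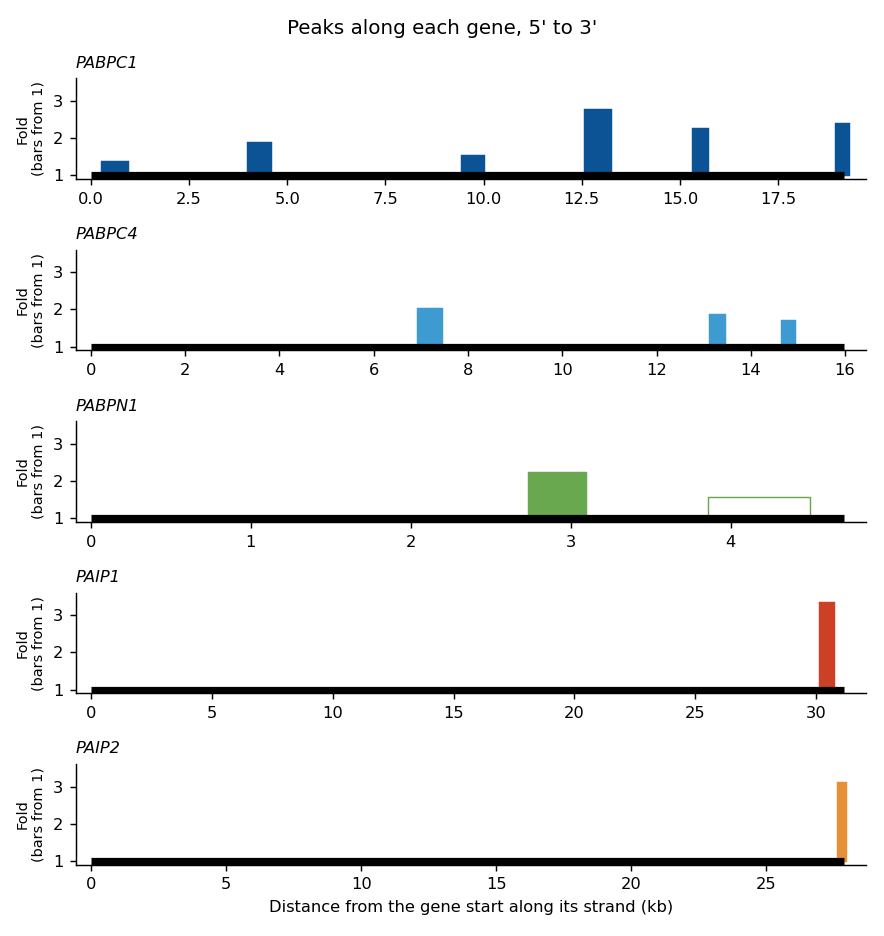
Peaks along each of the 5 genes. The horizontal axis is the distance from the gene start along its own strand in kb, the black line is the gene, and each bar is a peak drawn at its width, rising from a fold of 1 (no enrichment) to its fold enrichment; filled bars passed a q of 0.01 and the open bar of PABPN1 did not. PABPC1 carried 6 peaks along its length, and the single peaks of PAIP1 and PAIP2 lay at the 3' end.

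The deposited annotation carried the name PABPC1 at only 2 of its 6 peaks. It names each peak for the closest annotated start site, and 4 of the 6 peaks stood under MIR7705, a microRNA gene of 57 bp inside the 3' end of PABPC1 (100702968 to 100703024). Of these 4, 1 overlapped the microRNA, with its summit 23 bp before the hairpin along the strand of PABPC1. The other 3 were exon peaks of PABPC1. The sixth peak was for the same reason classed as promoter although it lay at the end of the PABPC1 gene. PABPC1 has many processed pseudogenes and an intronless paralog, PABPC3, with similar sequence. No peak fell in PABPC3 or in any of 17 annotated pseudogenes of the 5 genes. How the alignment treated reads that match several copies is not stated in the labels or the list, and its part in the PABPC1 values was not tested.

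PABPC4, a second cytoplasmic PABP first described in activated T cells, had 3 peaks in its 15975 bp span (chromosome 1, 39560816 to 39576790, minus strand), and all passed. The peak nearest the gene start (39569337 to 39569873) held 104 fragments over a background of 50.3, a fold of 2.05 (1.68 to 2.48) with a −log10 q of 7.62. The next (39563336 to 39563676) held 89 fragments over 46.9, a fold of 1.88 (1.51 to 2.31) with a −log10 q of 4.75. The third (39561844 to 39562159), 1281 bp before the end of the gene, held 84 fragments over 48.3, a fold of 1.73 (1.38 to 2.13) with a −log10 q of 3.05. The 3 intervals overlapped, and differences among these peaks were not tested.

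None of the 3 peaks of PABPC4 carried its name in the list. They stood under the small nucleolar RNA SNORA55, the antisense RNA PABPC4-AS1 and the pseudogene PPIEL, and all were classed as promoter for their distance to those genes. The summit of the first lay inside both PABPC4 and PABPC4-AS1 (39565070 to 39573203). The peaks carry no strand, so fragments of the sense and antisense RNA cannot be told apart there. The summits of the other 2 lay outside PABPC4-AS1. Having 3 passing peaks, PABPC4 was among 271 protein-coding genes with 3 or more, 6.95% of the genes with any.

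PABPN1, the nuclear PABP, had 2 peaks in a compact gene of 4707 bp (chromosome 14, 23321457 to 23326163, plus strand). The first (23324187 to 23324554), whose summit lay 2825 bp past the gene start, held 167 fragments over a background of 74.1, a fold of 2.24 (1.91 to 2.60) with a −log10 q of 16.3. The second (23325317 to 23325951), in the 3' UTR 601 bp before the end, held 82 fragments over 51.7, a fold of 1.58 (1.26 to 1.95). Its q of 0.0201 made it the 1 peak of the 13 that did not pass. Of all 3' UTR peaks in the list 50.9% passed, and of the 3 in these genes the peaks of PAIP1 and PAIP2 did. The intervals of the 2 folds overlapped narrowly, between 1.91 and 1.95. Both summits also lay in BCL2L2-PABPN1, a readthrough gene that shares the PABPN1 exons, so fragments of the 2 transcripts cannot be told apart.

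PAIP1, the PABP partner that stimulates translation, had 1 peak, in the 3' UTR (chromosome 5, 43526660 to 43527280), 891 bp before the end of a gene of 31145 bp. It held 26 fragments over a background of 7.07, the fewest of the 13 peaks. Its fold of 3.35 (2.23 to 4.85) was the highest of the 13, and its −log10 q was 4.96. The list gave this peak to C5orf34, a neighbouring gene.

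PAIP2, the PABP partner that represses translation, also had 1 peak classed as 3' UTR (chromosome 5, 139369467 to 139369807), with the summit 140 bp before the end of its 27864 bp gene. It held 53 fragments over a background of 16.3, a fold of 3.13 (2.36 to 4.07) with a −log10 q of 9.41. PAIP2 and the vitamin C transporter SLC23A1, which lies on the opposite strand, overlap by 2522 bp, and the summit lay in that overlap, 2381 bp from the 3' end of SLC23A1. The list gave the peak to SLC23A1. Without strand the fragments could come from either gene, and where each peak was given to 1 gene with the deposited name first, PAIP2 had no peak. The list's only entry under the name PAIP2 was an exon peak of MATR3, a nuclear matrix protein (139322862 to 139323176, exon 14 of 17, fold 2.02), upstream of PAIP2.

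**Figure D2:**
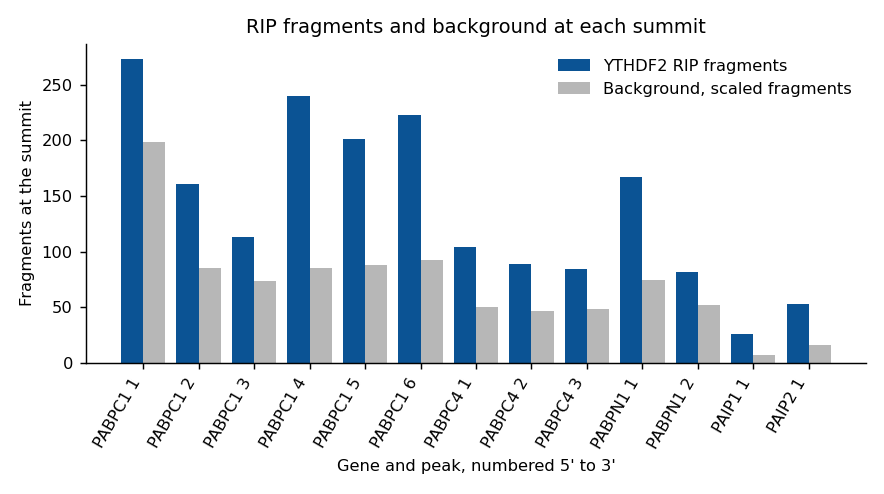
YTHDF2 RIP fragments (blue) and background in fragments scaled to the RIP (grey) at the summit of each of the 13 peaks, numbered from the 5' end of each gene, for the combined libraries. PABPC1 summits held 113 to 273 RIP fragments and those of PAIP1 and PAIP2 held 26 and 53; every RIP bar is above its background because the list holds only such peaks.

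By fold, the best peak of PAIP1 exceeded 85.6% of all peaks, that of PAIP2 80.3%, that of PABPC1 71.3%, that of PABPN1 38.7% and that of PABPC4 31.4%. By −log10 q the order turned, with PABPC1 above 99.2% of peaks, PABPN1 above 95.1%, PAIP2 above 88.8%, PABPC4 above 85.8% and PAIP1 above 79.0%. The interval of PAIP1 overlapped that of the best peak of every other member. The interval of PAIP2 overlapped those of the best peaks of PABPC1, PABPC4 and PABPN1, and the interval of PABPC1 overlapped those of PABPN1 and PABPC4. Differences between the genes' folds were not tested, and overlapping intervals do not show that folds are alike.

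**Figure D3:**
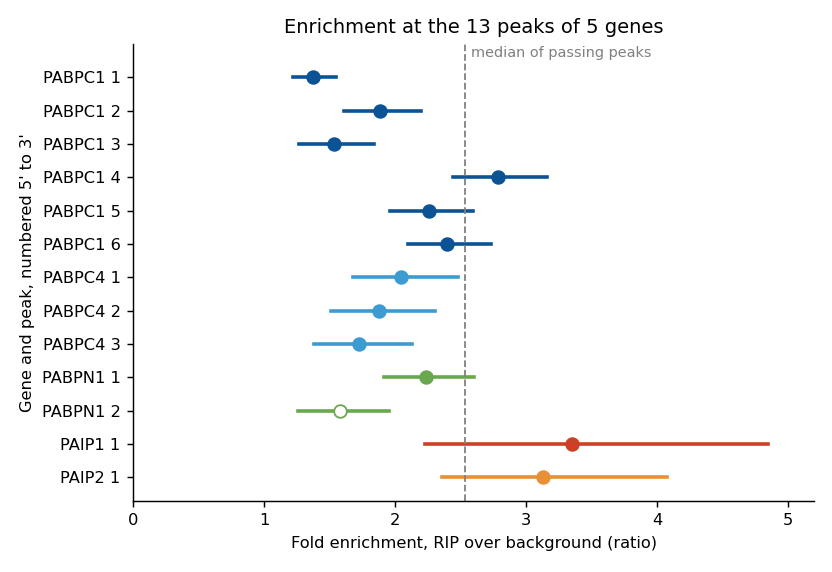
Fold enrichment (RIP over background, ratio) of the 13 peaks with exact 95% Poisson intervals of the RIP fragments, coloured by gene; the open circle did not pass a q of 0.01 and the dashed line is the median fold of all passing peaks, 2.53. Peak 4 of PABPC1 and the peaks of PAIP1 and PAIP2 lie to the right of the line and the other 10 to its left.

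Median folds in the list fell with the background, from 2.51 among peaks with a background like that of PAIP1 to 1.53 among those like the first peak of PABPC1. Each peak was therefore also placed among the peaks whose background was within a factor of 1.25 either way. The exon 8 peak of PABPC1 then exceeded 97.5% of 1021 peaks, whose median fold was 1.70, and the peak at the gene end exceeded 90.2% of 901. The exon 11 peak exceeded 85.5%. The first peak of PABPC1, at a background that only 36 peaks shared, exceeded 13.9%, and the exon 6 peak exceeded 30.4%. Thus the peaks of a single mRNA ran from low to high ranks at their background levels. The single peaks of PAIP2 and PAIP1 exceeded 85.9% and 77.8%, the first peak of PABPN1 82.3%, and its 3' UTR peak 27.5%. The 3 peaks of PABPC4 exceeded 65.9%, 51.5% and 39.2%, near the middle. Of the 13 peaks, 9 were above the median fold at their background. These ranks are descriptions of 1 list and carry no test.

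**Figure D4:**
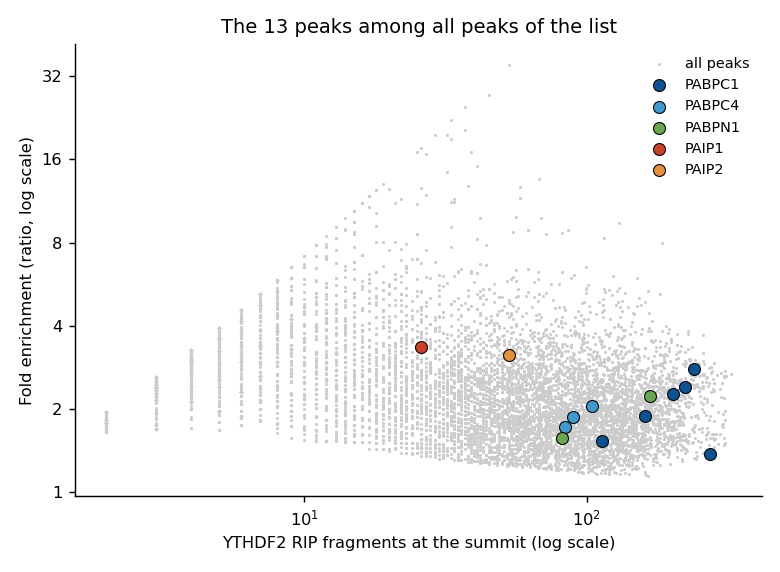
Fold enrichment (ratio, log scale) against YTHDF2 RIP fragments at the summit (log scale) for every peak of the list (grey) and the 13 peaks of the 5 genes (coloured). The peaks of PABPC1, PABPC4 and PABPN1 sit at the right, at 82 to 273 fragments and folds of 1.37 to 2.78, and those of PAIP1 and PAIP2 sit above and to the left of them.

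Most protein-coding genes had no peak, since 7191 of 20056 had one. The few paralogs of the members were not tested against that share. Of 8 paralogs, which are PABPC1L, PABPC3, PABPC4L, PABPC5, PABPC1L2A, PABPC1L2B, PABPN1L and PAIP2B, only PABPC1L had a peak. That peak, in exon 10 of 15, rested on 7 fragments and was enriched 3.37-fold at a −log10 q of 1.35, and it did not pass. A peak list holds no value for a gene without a peak, so no level can be given for the other 7.

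Genes whose proteins contact PABP or act with it had a peak in 23 of 26 cases, and 16 had one that passed. The median of their highest folds was 2.54 over the 23 genes, and 2.45 over the passing peaks of the 16. The value of 2.54 is the fold of a peak of 5 fragments with a −log10 q of 0.0942, which did not pass. PARN, a poly(A)-specific ribonuclease, had the highest passing fold, 17.0, on an alternative contig of chromosome 16 where the background was at 0.533 fragments. The peak held 25 fragments. Its background is not particular to PARN, since it also gives the folds of 2.61 at 3 fragments and 3.26 at 4 that recur in the list. PAN3, a subunit of the PAN2-PAN3 deadenylase, had a fold of 5.95 (3.05 to 10.8) over 9 fragments, while PAN2 had no peak. LARP4, a La-related protein that binds PABP and poly(A), had a fold of 5.63 (4.59 to 6.82) over 101 fragments. The cap-complex scaffold EIF4G3 had a fold of 4.24 (2.17 to 7.66) in a 5' UTR peak of 9 fragments. EIF4G1, the main eIF4G, had 4 passing peaks of which the highest fold was 1.89 (1.54 to 2.29) over 101 fragments. GSPT1, the release factor eRF3a that binds PABP, had 3 passing peaks, led by a 3' UTR peak of 2.52-fold (2.17 to 2.91) over 185 fragments. EIF4G1, GSPT1 and EIF4B (2.13-fold over 98 fragments, 3 passing peaks) were in this respect near PABPC1 and PABPC4. EIF4G1, GSPT1 and EIF4B were chosen for their contact with PABP after their values were seen.

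In the CCR4-NOT deadenylase, which YTHDF2 recruits, 9 of 11 subunits had a peak and 9 had one that passed. CNOT3 had the highest fold, 4.17 (1.91 to 8.37), on 6 fragments of an alternative contig. The nuclease CNOT6L had 3.26-fold (2.05 to 4.95), CNOT2 2.77-fold (2.05 to 3.67) and CNOT8, another nuclease, 2.70-fold (1.80 to 3.91). Of 25 genes of nuclear 3' end formation and tail synthesis, where PABPN1 acts, 12 had a peak and 6 had one that passed. These were led by WDR33 of the cleavage and polyadenylation specificity factor (2.80-fold, 1.92 to 3.96), the non-canonical poly(A) polymerase TENT4B (2.71-fold, 2.19 to 3.33), the exosome helicase MTREX (2.37-fold, 1.91 to 2.91) and the poly(A) polymerase PAPOLA (2.19-fold, 1.82 to 2.60). Over all 70 related genes 45 had a peak and 31 had one that passed. Among all 20056 protein-coding genes 7191 had a peak and 3900 had one that passed, or 54.2% of those with a peak. All 5 members had one that passed, but members and related genes were chosen with earlier results of these data known. No related gene had more than 4 passing peaks.

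**Figure D5:**
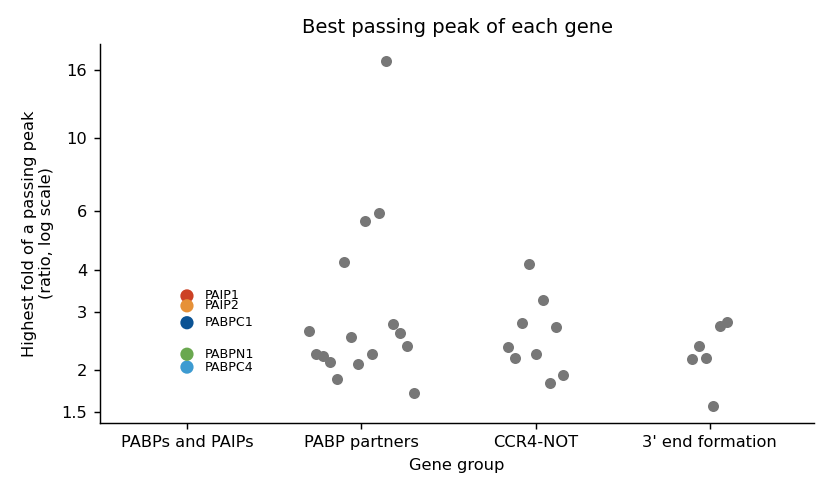
Highest fold of a passing peak (ratio, log scale) for each gene with one, for the 5 members (coloured, named) and for 16 PABP partners, 9 CCR4-NOT subunits and 6 genes of nuclear 3' end formation (grey points). The members lie between 2.05 and 3.35, and PAIP1 and PAIP2 lie above every gene of nuclear 3' end formation shown. The highest grey point is PARN at 17.0, from 25 fragments over a background of 0.533.

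The protein-coding genes most like each member were those with the nearest log2 fold and log2 fragment number of their best peak by q, within the same feature class and over this 1 list. For PABPC1 they were DSTN, an actin-severing protein (2.78-fold over 242 fragments), and TES (2.90-fold over 219), among 1586 genes with an exon peak. For PABPC4 they were the elongation factor homolog ELOF1 (2.02-fold over 104) and the centromere protein CENPB (2.09-fold over 102). For PABPN1 they were AZIN1, the antizyme inhibitor (2.25-fold over 168), and NPB (2.26-fold over 170). For PAIP1 they were the endonuclease subunit MUS81 (3.26-fold over 26) and RCN2 (3.38-fold over 27). For PAIP2 they were the anion exchanger SLC4A2 (3.07-fold over 54) and the GTPase RRAS2 (3.06-fold over 52).

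The labels name liver as the tissue. Of 10 hepatocyte markers APOB and HNF4A had a peak and none passed, while of 3 epithelial markers the keratins KRT8 and KRT18 had passing peaks, 1 of them shared by both gene spans, and EPCAM had none. Of 12 markers of endothelial, stromal, leukocyte and erythroid cells, HBB had a passing peak, of 5.87-fold over 8 fragments, and the peaks of CD68, LUM and PECAM1 missed the threshold. The list gives enrichment and not expression, so these counts neither measure the markers' levels nor check the cell type.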

How the data were processed

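Per the labels' protocols, RNA of the 4 libraries was isolated with a commercial RIP kit on magnetic beads, and libraries came from a stranded total RNA kit for small inputs. HISAT2, MACS2 and hg38 are named in the submitters' processing notes; versions, thresholds and the way libraries were combined are stated neither there nor in the list. The deposited list holds for each peak a fold enrichment (a ratio), a −log10 p and a −log10 q, per the file headers, and a score that the authors' file gives as 10 times the −log10 p and that was not used. Widths and positions are as deposited.

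The caller's fold is (k + 1) / (background + 1) and its p the Poisson chance of exceeding k. Solving both gave k and background, with −log10 p met within 0.000189. On 2000 peaks simulated with these same formulas 100% were recovered, which checks the solving and not the formulas. The simulated peaks reached neither the background of 198.5 of the first PABPC1 peak nor the lowest fragment numbers of the list. Gene spans came from RefSeq (GRCh38.p14). On other contigs the deposited span was used, and a summit in several spans counted for each gene (465 summits in 2 or more protein-coding genes). The strand of PABPC4 was taken as opposite to PABPC4-AS1. No test beyond the caller's q was made. Named genes were the members, up to 4 related genes per role by highest passing fold, paralogs with a peak, and the 2 nearest genes by fold and fragments; exceptions are stated. Members and lists were chosen with earlier results of these data known. Alternatives covered q and fold thresholds, gene assignment, contigs and the peak standing for a gene. Analyses used Python 3.11.15, pandas 2.3.3 and SciPy 1.17.1.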

Additional observations from a re-analysis of the deposited data

How the results depend on the processing

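Of 51 values under alternative settings, 42 stayed within 1.5 times a count, or within the counting interval of a fold. Some of these could not change. All 13 member peaks lay on main chromosomes, and each member's peak of highest fold was also its peak of highest −log10 q. Member values with main chromosomes only, or with the peak of highest −log10 q, were therefore fixed and show no stability. The number of members with a passing peak could not rise above 5 at a looser q or with every peak. The median best-peak log2 fold was fixed there too, since each member's best peak already passed. With a minimum fold of 2 both were again fixed, because each best peak had a fold of at least 2.05. Passing member peaks numbered 12, and 7 with a −log10 q threshold of 5 or with a minimum fold of 2 added. With the deposited gene 4 peaks passed under 3 members' names (12 and 5 before), 1 of them an exon peak of MATR3 that stands as the only PAIP2 peak, and the median best-peak log2 fold was 1.01 against 1.48. The best folds were then 1.88 for PABPC1 and 2.02 for PAIP2, the latter from that MATR3 peak. These changes follow from the naming by nearest start site. With the mean over a gene's peaks the median was 0.98, since lower peaks of PABPC1, PABPC4 and PABPN1 enter it. Related genes with a passing peak fell from 31 to 18 at a −log10 q of at least 5. With 1 gene per peak, chosen after seeing the data, 11 peaks and 4 members passed, without PAIP2. No paired analysis was possible because the list holds no value per library, and leaving out a replicate was not run for the same reason. Library depth is unknown. The PAIP1 peak rests on 26 fragments, the fewest of the 13.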

Other observations

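Naming by nearest start site also touched the paralog PABPC1L. The list gave it 3 peaks, and 2 of them lay in YWHAB, a 14-3-3 protein. These were an exon 3 peak of 2.99-fold over 258 fragments with a −log10 q of 45.0 (chromosome 20, 44901724 to 44902063) and a peak of 1.76-fold over 187 fragments (44906634 to 44908661). The third was the PABPC1L peak of 7 fragments described above.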
